A study of Mus musculus with 8 samples.

Results

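The genes described here are the 10 genes of peptide presentation on MHC class I and class II molecules that the count tables list as B2m, H2-K1, H2-D1, Tap1, Tap2, Tapbp, Cd74, H2-Aa, H2-Ab1 and H2-Eb1, out of 23432 gene rows. They were chosen by symbol, from what their proteins do, with earlier results of these data known. All 10 had at least 1 count in the series. The 8 mouse RNAseq libraries fell into 4 groups of 2. The E16.5 MOF cKO carried MOFfl/fl with K14Cre, so that Mof (Kat8, a histone acetyltransferase) was deleted where the keratin 14 promoter is active, and was set against E16.5 control. Both E16.5 groups were embryonic back skin sorted for K14-H2BGFP+ epithelial cells. The P0.5 Kansl1 cKO carried Kansl1fl/fl with K14Cre, so that Kansl1, a subunit of the NSL complex that MOF works in, was deleted in the same cells, and was set against P0.5 control. Both P0.5 groups were total epidermis of newborn mice, lifted off the dermis with dispase and lysed without sorting. Controls were littermates whose alleles the labels do not list, and all mice were of mixed C57Bl/6J and CD-1 background, male and female. Cells outside the K14Cre lineage kept their alleles, including any immune cells of the newborn epidermis. The labels do not say that the 2 libraries of a group came from separate animals, so the p-values measure the spread between these libraries only.

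MHC class I molecules, found on nearly all nucleated cells, consist of a heavy chain such as H2-K1 or H2-D1 with beta-2 microglobulin (B2m), and display peptides of proteins made inside the cell. The peptides enter the endoplasmic reticulum through the Tap1 and Tap2 transporter, and tapasin (Tapbp) holds the empty class I molecule at that transporter while it is loaded. Class II molecules pair an alpha chain with a beta chain of the same isotype (H2-Aa with H2-Ab1), and H2-Eb1 is the beta chain of another isotype. They are guided by the invariant chain Cd74, and display peptides of ingested proteins mainly on dendritic cells, Langerhans cells, macrophages and B cells. Class I promoters answer to interferon, Nlrc5 and Nf-kB, and class II promoters need Ciita together with Rfx5, Rfxap, Rfxank and Nfy, which bind the X and Y boxes.

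The stretches just upstream of 4 members show these elements, and are printed because B2m and H2-K1, or H2-Aa and H2-Eb1, are the class I and class II genes whose levels moved in the comparisons given further on. They were taken from RefSeq on GRCm38.p6, run from 145 to 6 bases before the annotated start of transcription, and stand 5′ to 3′ on the gene's own strand, with capitals for the motif matches described after them. The positions were chr2:122147542-122147681 (plus strand) for B2m, chr17:34000353-34000492 (minus) for H2-K1, chr17:34287829-34287968 (minus) for H2-Aa and chr17:34305722-34305861 (plus) for H2-Eb1.
B2m: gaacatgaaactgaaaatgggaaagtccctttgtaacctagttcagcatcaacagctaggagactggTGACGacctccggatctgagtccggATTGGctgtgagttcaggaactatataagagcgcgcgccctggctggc
H2-K1: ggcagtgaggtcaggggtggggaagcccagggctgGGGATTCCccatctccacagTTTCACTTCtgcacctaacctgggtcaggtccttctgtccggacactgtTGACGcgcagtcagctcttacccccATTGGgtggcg
H2-Aa: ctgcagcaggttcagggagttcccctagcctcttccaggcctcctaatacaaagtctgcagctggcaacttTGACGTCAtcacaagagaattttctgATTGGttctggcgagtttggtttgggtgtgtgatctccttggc
H2-Eb1: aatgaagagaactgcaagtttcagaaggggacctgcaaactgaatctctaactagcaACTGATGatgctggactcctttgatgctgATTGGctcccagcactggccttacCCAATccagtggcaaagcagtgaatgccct

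Promoter windows from 250 bases before to 50 bases after the start were read for 7 members (B2m, H2-K1, H2-D1, Tap1, Tapbp, H2-Aa and H2-Eb1) and searched on both strands. The Y box core CCAAT stood in 7 of 7, against 37.4% of the 32851 promoters in the table. The X2 box core TGACG stood in 5 of 7 (all but Tapbp and H2-Eb1), against 20.8% of all promoters, and the X1 box core ACNGATG in 3 of 7 (H2-D1, H2-Aa and H2-Eb1), against 9.85%. The interferon regulatory factor element GAANNGAAA and the kB element of the class I enhancer, GGGATTCC, each stood in H2-K1 and H2-D1, against 7.52% and 1.06% of all promoters. Only these exact spellings were searched, so other forms of the elements, also in the lower-case letters printed above, were not looked for. In H2-D1 the X1 and X2 matches overlapped. In H2-Aa the X1 match began 232 bases before the start, apart from its X2 matches at 74 and 71 and its Y match at 48. The Y match of Tap1, at 222, lay upstream of its X2 match at 86, and those of Tapbp lay at 248 and 165. A match is a stretch of letters in the reference strain and was not tested as a binding site in these animals.

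A short stretch of the upstream enhancer was compared between H2-K1 and H2-D1, the heavy chain genes among the members. It is shown from 1 base before the kB element to the end of the interferon element, both in capitals, at chr17:34000429-34000458 (minus strand) for H2-K1 and chr17:35262923-35262952 (plus) for H2-D1. The H2-D1 stretch lies before the RefSeq start of transcription but inside the longer GENCODE gene.
H2-K1: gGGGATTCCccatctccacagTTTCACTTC
H2-D1: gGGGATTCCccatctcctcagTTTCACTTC
The 30 bases differed at 1 position, A18T, counted from the first base shown, with the H2-K1 base first. The stretch was cut at the matches to the 2 motifs, so the spelled letters of those motifs were the same by choice. The rest of the 2 promoters was not compared base by base, and a link to the counts was not tested.

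B2m lies on chromosome 2, and 8 of the other members lie in the MHC on chromosome 17, between the start of Tapbp at 33915899 and the end of H2-D1 at 35267499 on GRCm38. Paralogs are a concern in this family, so all stretches of 150 bases (the read length) in the annotated transcripts were compared with the transcripts of all other genes. No such stretch was shared for 9 members, and 1.35% of those of H2-D1 were shared with H2-Q1. H2-L, H2-Q8, H2-Q9 and H2-T9 have rows in the counts but gave no stretch from those transcripts, so sharing with them was not checked. Exons of Tapbp overlapped those of Zbtb22 on the same strand over 149 bases, and exons of Tap1 overlapped those of Psmb9 on the opposite strand over 212 bases. On the opposite strand Tapbp also shared 904 bases (24.9% of its exon bases) with Gm19412, and Tap2 shared 533 bases (14.1%) with Gm15821 and 165 bases (4.36%) with Gm20496. Whether counting used the strand is not given in the sources used here. The H2 genes are among the most polymorphic of the mouse, and how reads of CD-1 alleles were placed on the reference was not tested.

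The libraries held 9108709 to 27561688 counts on genes, so that 3 counts were worth between 0.0899 and 0.367 CPM (counts-per-million, on effective library sizes over all 8 libraries), the floor under which a level was not read. The targeted genes were counted over all exons and so do not check the deletion itself. Kat8 had 13.3 and 13.6 CPM in E16.5 control and 11.5 and 12.8 CPM in E16.5 MOF cKO, and Kansl1 had 43.4 and 51.8 CPM in P0.5 control and 34.6 and 33.4 CPM in P0.5 Kansl1 cKO. All 12 epithelial markers were detected in each group, with summed levels of 35730 to 96020 CPM. Macrophage markers were counted too, at 33.4 to 62.2 CPM summed over 14 genes in E16.5 control and 102 to 136 CPM in E16.5 MOF cKO, and at 212 to 250 CPM in P0.5 control and 328 to 349 CPM in P0.5 Kansl1 cKO. Most of the E16.5 control sum was Cd68 (16.6 and 38.5 CPM) and Mertk (13.1 and 18.5 CPM). Without Cd68 the sums were 16.8 to 23.7 CPM in E16.5 control and 81.0 to 88.3 CPM in E16.5 MOF cKO.

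In the MOF cKO at E16.5, the light chain B2m, tapasin and the class II chain H2-Eb1 rose, while the class I heavy chains and the peptide transporter did not pass the test (adjusted p of 0.01 or lower and over 1.5-fold in edgeR). Of the 9 members tested, 3 were called higher, where 10% of all 13956 genes tested were, and 0 were called lower, where 9.59% of all genes were. DESeq2 also called 0 lower, where it called 1725 of all genes lower. At an unadjusted p under 0.05 there were 4 higher and 1 lower (Tap2), and 48.9% of all genes were at such a p in either direction. The median log2 fold change of the 9 was 0.47, beside -0.02 over all genes. Both MOF cKO libraries lay above both controls for 5 of the 9 and below them for 3. This held for 35% and 37.7% of all genes, so groups that stand apart were common. With library size alone as the scale, the split over all genes was 769 higher and 2743 lower in place of 1395 and 1338, and the same number of members was called.

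**Figure D1:**
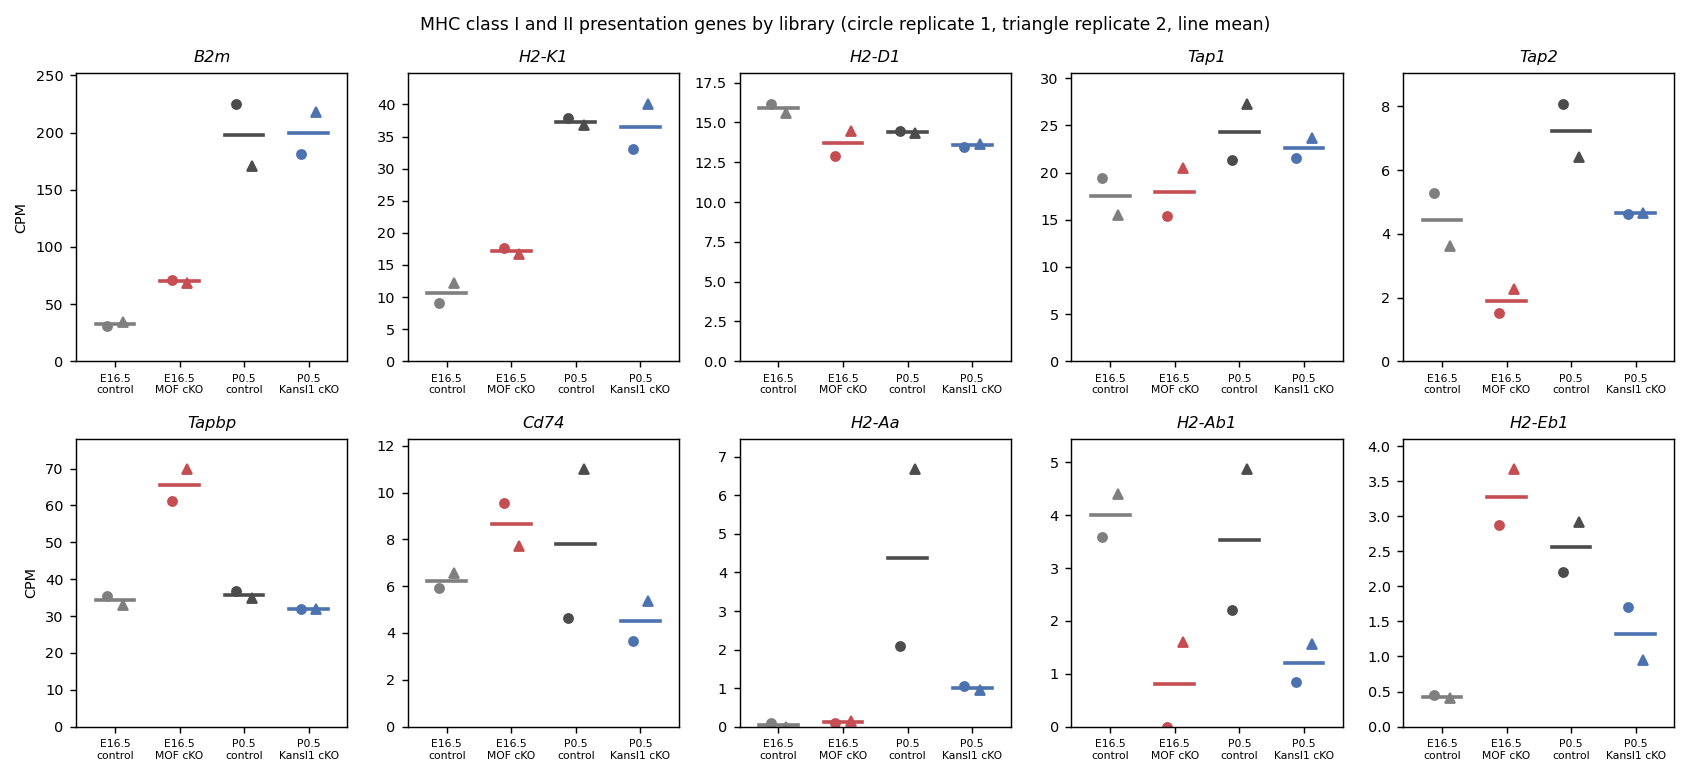
Level of each of the 10 genes in counts-per-million (vertical axis, linear from 0, scaled per gene) in the 4 groups, with circles for replicate 1, triangles for replicate 2 and a line at the mean. B2m and Tapbp stood above control in both E16.5 MOF cKO libraries. Of the 9 members tested 5 did so and 3 stood below, and these groups stood apart for 72.7% of all genes. H2-Aa was near 0 at E16.5 and highest in P0.5 control replicate 2 at 6.68 CPM.

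B2m and Tapbp were the members of highest CPM at E16.5. B2m had 1036 counts in each E16.5 control library and 1539 and 1756 counts in E16.5 MOF cKO, or 31.0 and 34.6 CPM against 71.3 and 68.6 CPM. Both MOF cKO libraries stood above both controls, by 1.09 ± 0.12 on the log2 scale (SE, n = 2 per group, adjusted p = 0.000838), or 2.13-fold. Leaving out any of the 4 libraries kept the call, with log2 fold changes of 1.02 to 1.18.

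The heavy chains that B2m pairs with did not pass the test. H2-K1 had 9.08 and 12.3 CPM in E16.5 control and 17.6 and 16.7 CPM in MOF cKO, so its groups did not overlap, but the difference of 0.69 ± 0.20 (SE) on the log2 scale had an adjusted p of 0.0329 and was not called. H2-D1 had 16.1 and 15.6 CPM in control and 12.9 and 14.4 CPM in MOF cKO, with a difference of -0.21 ± 0.17 on the log2 scale (adjusted p = 0.353). The cKO libraries of H2-D1 were thus both slightly below the controls, on the other side from H2-K1.

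Of the 3 loading genes among the members, tapasin was the one called higher. Tapbp had 35.5 and 33.1 CPM in E16.5 control and 61.2 and 69.8 CPM in MOF cKO, a difference of 0.93 ± 0.13 on the log2 scale (adjusted p = 0.00169). The call held without each of the 4 libraries in turn. Tap1 and Tap2 encode the subunits of a single transporter, and their values went apart. Tap1 overlapped between the groups, with 19.5 and 15.5 CPM in control and 15.4 and 20.5 CPM in MOF cKO. Tap2 was lower in both MOF cKO libraries, at 1.53 and 2.26 CPM against 5.27 and 3.61 CPM, but its difference of -1.22 ± 0.43 on the log2 scale had an adjusted p of 0.056 and was not called.

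Class II genes were low at E16.5, and the beta chain counts were divided differently in the MOF cKO. H2-Eb1 had 15 and 12 counts in E16.5 control and 62 and 94 in MOF cKO, or 0.449 and 0.401 CPM against 2.87 and 3.67 CPM. The groups stood apart, with a difference of 2.93 ± 0.55 on the log2 scale (adjusted p = 0.00581). The call was lost without E16.5 control replicate 1 (adjusted p = 0.0178), without E16.5 control replicate 2 (0.0193) and without E16.5 MOF cKO replicate 2 (0.0177), at log2 fold changes of 3.02, 2.86 and 2.74.

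H2-Ab1, the beta chain of the other class II isotype, had lower counts in the MOF cKO, unevenly between its libraries. It had 120 and 132 counts in E16.5 control, 0 in MOF cKO replicate 1 and 41 in MOF cKO replicate 2. The count of 0 allows a level of up to 0.139 CPM in that library, against 3.59 and 4.41 CPM in the controls and 1.60 CPM in the other MOF cKO library. The log2 fold change of -2.28 ± 1.10 had an adjusted p of 0.141. Without MOF cKO replicate 2 the gene was called lower, with an adjusted p of 0.000945, on the library at 0 alone. Without MOF cKO replicate 1 the log2 fold change was -1.32 and the gene was not called.

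The alpha chain and the invariant chain did not separate in the same manner. H2-Aa had 3 and 0 counts in E16.5 control and 2 and 4 in MOF cKO, too few to pass the filter, and the ratio of the summed counts per effective library size was 2.68 with a 95% counting interval of 0.573 to 16.6. Cd74, the class II member of highest CPM in all 8 libraries, had 5.90 and 6.54 CPM in E16.5 control and 9.54 and 7.73 CPM in MOF cKO. Its difference of 0.47 ± 0.25 on the log2 scale had an adjusted p of 0.174.

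**Figure D2:**
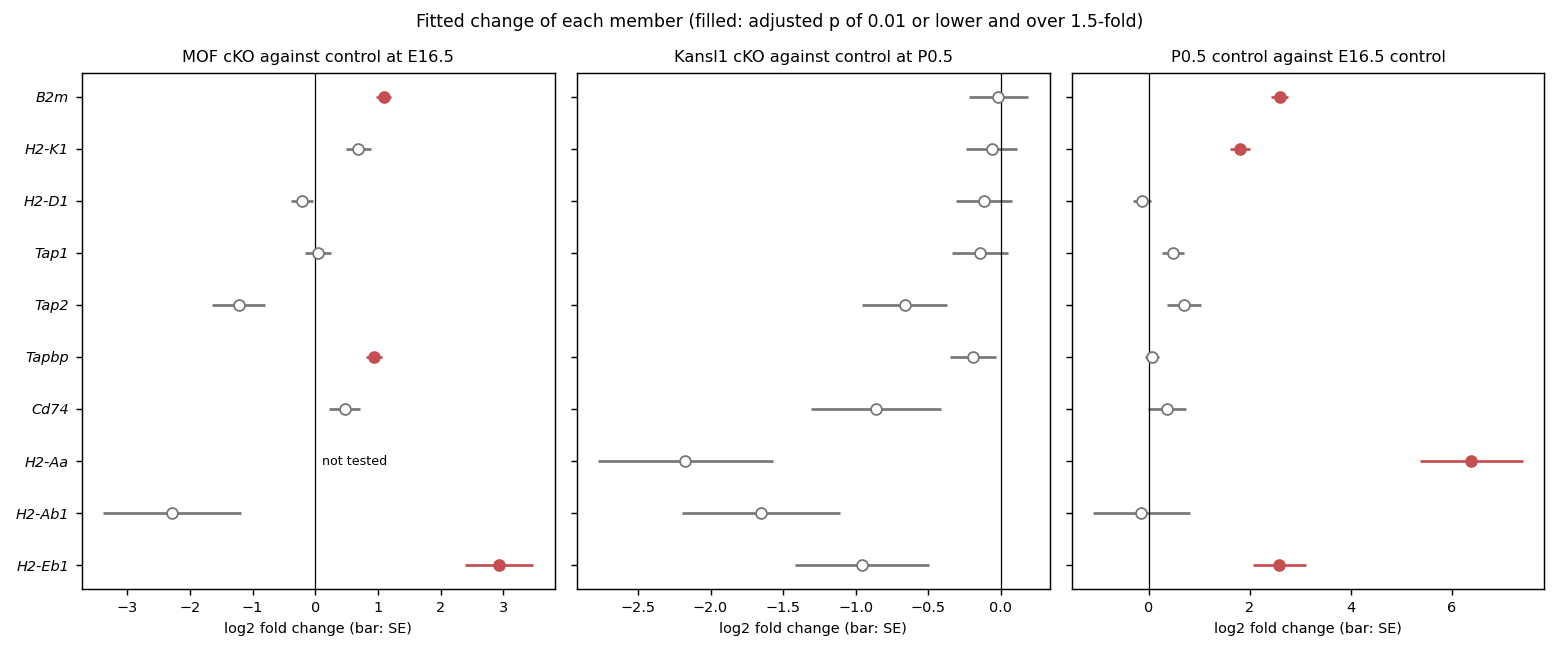
Fitted log2 fold change with its SE (horizontal axis, own scale in each panel) for each of the 10 genes in the MOF cKO, the Kansl1 cKO and the control comparison between stages, filled where the gene was called. In the middle panel all 10 points lie below 0 and none is filled.

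In the Kansl1 cKO at P0.5 no member was called. Of the 10 members tested, 0 were called higher and 0 lower by edgeR, where 0% of all 13031 genes were called higher and 0% lower. DESeq2 called 0 members, and 35 of all genes higher and 66 lower. At an unadjusted p under 0.05 there were 2 members lower (H2-Aa and H2-Ab1) and 0 higher, where 15.7% of all genes were at such a p. All 10 log2 fold changes were below 0, with a median of -0.43, while 48.6% of all genes tested were below 0 and their median was 0.01. The groups did not overlap for 6 of the 10, all lower. Over all genes tested the groups did not overlap for 49.3%, and for 20.6% with Kansl1 cKO the lower. That B2m, H2-K1 and Tap1 lay below 0 rested on single libraries or the fit, since each turned positive in at least 1 alternative.

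The class I genes of the newborn epidermis lay close together. B2m had 225 and 170.5 CPM in P0.5 control and 181 and 218 CPM in Kansl1 cKO, with a difference of -0.02 ± 0.21 on the log2 scale (adjusted p = 0.977). H2-K1 had 37.8 and 36.9 CPM against 33.0 and 40.1 CPM, and H2-D1 had 14.4 and 14.3 CPM against 13.5 and 13.6 CPM. The control and cKO libraries overlapped for B2m and H2-K1 and stood apart for H2-D1, whose difference of -0.12 ± 0.19 on the log2 scale was within its error.

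Among the loading genes, Tap2 had the lowest fold change. It had 8.07 and 6.40 CPM in P0.5 control and 4.63 and 4.66 CPM in Kansl1 cKO, a difference of -0.66 ± 0.29 on the log2 scale (adjusted p = 0.337). Tap1 overlapped, with 21.3 and 27.3 CPM in control and 21.5 and 23.7 CPM in Kansl1 cKO. Tapbp had 36.8 and 34.8 CPM against 32.0 CPM in both Kansl1 cKO libraries, with a difference of -0.19 ± 0.16 on the log2 scale.

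Class II chain levels in the newborn control differed strongly between its own libraries. H2-Aa had 17 counts (2.08 CPM) in P0.5 control replicate 1 and 96 counts (6.68 CPM) in replicate 2, against 1.07 and 0.949 CPM in Kansl1 cKO. Both cKO libraries lay below both controls, with a difference of -2.17 ± 0.60 on the log2 scale (adjusted p = 0.217). H2-Ab1 had 2.20 and 4.87 CPM in control and 0.852 and 1.55 CPM in Kansl1 cKO, with a difference of -1.65 ± 0.55 on the log2 scale (adjusted p = 0.248). P0.5 control replicate 2 was the highest of the 8 libraries for both genes and for Cd74.

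For the other class II genes the newborn groups were closer. H2-Eb1 had 2.20 and 2.92 CPM in P0.5 control and 1.70 and 0.949 CPM in Kansl1 cKO, with a difference of -0.96 ± 0.46 on the log2 scale (adjusted p = 0.368). Cd74 had 4.65 and 10.99 CPM against 3.68 and 5.35 CPM, groups that overlapped, with a difference of -0.86 ± 0.45 on the log2 scale. Without P0.5 control replicate 2 the log2 fold change of Cd74 was -0.13, that of H2-Aa -1.10 and that of H2-Ab1 -0.99.

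The effects of the MOF cKO and the Kansl1 cKO were compared directly in a fit of all 8 libraries, although stage, isolation, sequencer and the gene deleted cannot be told apart in that contrast. Of the 10 members, 0 differed by the rule for calling, where 2.92% of all 14565 genes did. At an unadjusted p under 0.05 there were 6, where 31.2% of all genes were, and DESeq2 called 3 (B2m, Tapbp and H2-Eb1), where it called 976 of all genes higher and 520 lower. In edgeR these 3 narrowly missed the threshold. The effect on Tapbp was larger in MOF cKO by 1.09 ± 0.20 on the log2 scale (adjusted p = 0.0104), that on H2-Eb1 by 3.86 ± 0.71 (0.0115) and that on B2m by 1.08 ± 0.23 (0.0189).

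Between the controls, the class I light chain and H2-K1 were 6.02-fold and 3.50-fold higher in the newborn epidermis than in the sorted E16.5 epithelium, and H2-D1 was not called. By the same rule 4 of the 10 members (B2m, H2-K1, H2-Aa and H2-Eb1) were called higher at P0.5, where 19.6% of all 14565 genes were, and 0 were called lower, where 20.6% were. DESeq2 called the same 4, and 0 lower, and no member was lower at an unadjusted p under 0.05. Without a scaling factor the split over all genes was 2144 higher and 4375 lower in place of 2854 and 2997. Age, sorting and sequencer differ together here and cannot be told apart, and in bulk RNA more cells of a type and more RNA per cell cannot be told apart either.

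B2m rose from 31.0 and 34.6 CPM at E16.5 to 225 and 170.5 CPM at P0.5, a difference of 2.59 ± 0.17 on the log2 scale (adjusted p = 5.9e-06). H2-K1 rose from 9.08 and 12.3 CPM to 37.8 and 36.9 CPM, a difference of 1.81 ± 0.19 on the log2 scale (adjusted p = 7.23e-05). H2-D1 had 16.1 and 15.6 CPM at E16.5 and 14.4 and 14.3 CPM at P0.5, with a difference of -0.14 ± 0.18 on the log2 scale. Its 8 libraries spanned only 12.9 to 16.1 CPM. Tapbp overlapped between the controls, at 35.5 and 33.1 CPM against 36.8 and 34.8 CPM.

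For class II, H2-Aa went from 3 counts in both E16.5 control libraries together to 113 in the P0.5 controls, a ratio of 106 per effective library size with a 95% counting interval of 35.3 to 521. Its adjusted p in edgeR was 0.000672. Of the 113 counts 96 came from P0.5 control replicate 2, and without that library the fitted log2 fold change was 5.31. It was 9.41 without E16.5 control replicate 1, which left the control library at 0, so that value is no bound. H2-Aa was called without each library in turn. H2-Eb1 rose from 0.449 and 0.401 CPM to 2.20 and 2.92 CPM, a difference of 2.58 ± 0.52 on the log2 scale (adjusted p = 0.00246). The H2-Eb1 call was lost without E16.5 control replicate 1 (adjusted p = 0.0133), E16.5 control replicate 2 (0.0173) or P0.5 control replicate 2 (0.0182), at log2 fold changes of 2.78, 2.51 and 2.36. H2-Ab1 and Cd74 overlapped between the controls.

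Ratios within a library do not depend on scaling between libraries and showed a shift in the balance of paired genes. H2-K1 had 0.562 and 0.786 counts per H2-D1 count in E16.5 control, 1.37 and 1.15 in E16.5 MOF cKO, 2.62 and 2.57 in P0.5 control and 2.45 and 2.94 in P0.5 Kansl1 cKO. The E16.5 control libraries were thus the only 2 with more H2-D1 than H2-K1 counts. Tap1 had 3.69 and 4.29 counts per Tap2 count in E16.5 control and 10.09 and 9.03 in MOF cKO, against 2.64 to 5.07 at P0.5. These ratios are a description, and their differences between groups were not tested.

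The class II chains differed in balance too. H2-Ab1 held 87.0% (120 of 138 counts, exact 95% interval 80.2 to 92.1%) and 91.7% (132 of 144, 85.9 to 95.6%) of the counts on H2-Aa, H2-Ab1 and H2-Eb1 in E16.5 control. In E16.5 MOF cKO it held 0 of 64 counts (up to 4.69% by the limit of 3 counts and 5.6% by the exact interval) and 29.5% (41 of 139, 22.1 to 37.8%). H2-Eb1 held the rest almost alone, with 96.9% and 67.6%. In the 4 P0.5 libraries the share of H2-Ab1 was 23.5 to 45.0%, and H2-Aa held 27.5 to 46.2%. At E16.5 H2-Aa held 0 to 3.12% on 0 to 4 counts per library, with exact intervals that reached up to 10.8%. The intervals cover counting error only, since the reads carry no molecular identifiers.

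**Figure D3:**
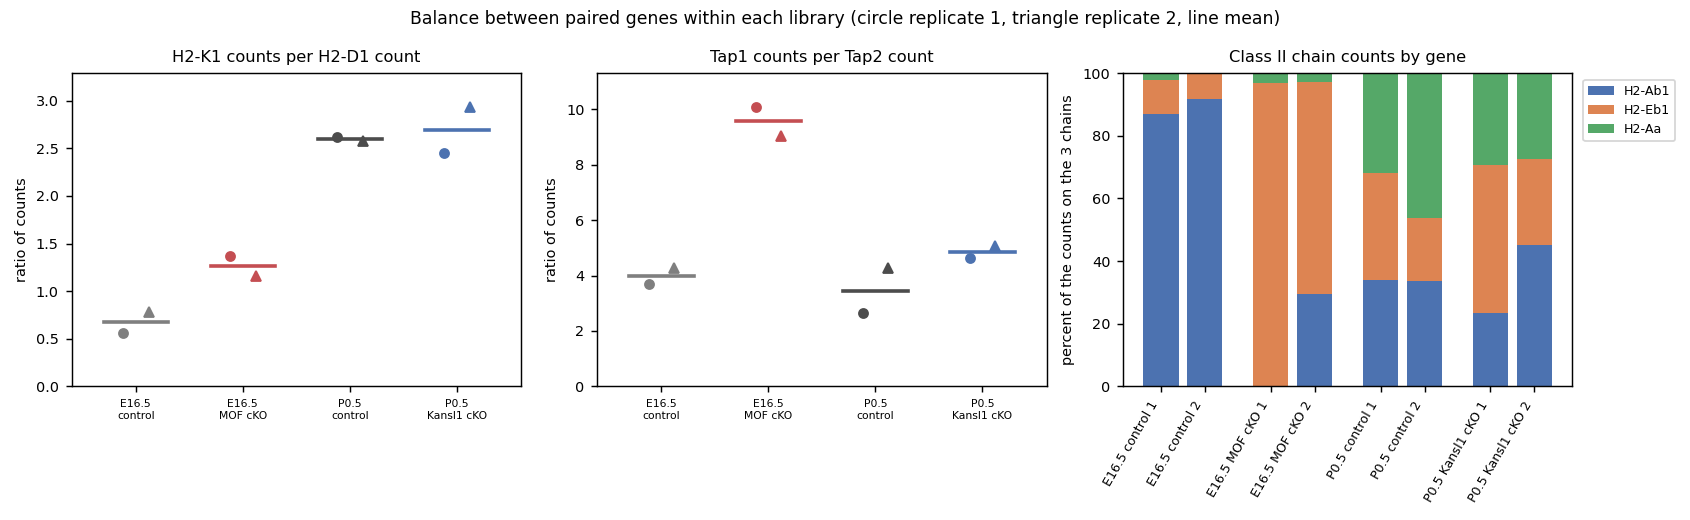
H2-K1 counts per H2-D1 count and Tap1 counts per Tap2 count by library (vertical axes linear from 0, line at the mean of 2 libraries), and the percent of class II chain counts on H2-Ab1, H2-Eb1 and H2-Aa in each of the 8 libraries. Both E16.5 MOF cKO libraries have a Tap1 to Tap2 ratio above 9, and H2-Ab1 dominates in the E16.5 control bars alone.

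Per kilobase of annotated exon, B2m had the highest level of the 10 in each of the 4 groups, with 38.2 ± 2.93 CPM per kb (SD, n = 2) in E16.5 control, 81.3 ± 2.24 in MOF cKO, 230 ± 44.7 in P0.5 control and 232 ± 30.5 in Kansl1 cKO. In E16.5 control Tapbp (9.45 ± 0.47 CPM per kb) and H2-D1 (6.16 ± 0.151) followed, and Cd74 (3.71 ± 0.271), H2-K1 (3.63 ± 0.766) and Tap1 (3.19 ± 0.518) did not differ beyond their spread. In P0.5 control H2-K1 came second with 12.7 ± 0.229 CPM per kb, ahead of Tapbp with 9.87 ± 0.40 and H2-D1 with 5.58 ± 0.0302. At the bottom of P0.5 control, H2-Ab1 (1.38 ± 0.734), H2-Eb1 (1.32 ± 0.262) and H2-Aa (1.15 ± 0.856) did not differ beyond their spread.

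Other class I chains differed widely in their counts. Of 30 listed, 12 had no count in any of the 8 libraries, among them H2-T22 and H2-L. H2-T23, a nonclassical chain, had 29.96 and 22.5 CPM in E16.5 control and 95.9 and 102.5 CPM in P0.5 control, while H2-Q4 had 30.4 and 37.6 CPM and then 9.67 and 10.7 CPM. Of the stretches of 150 bases in H2-T22, 0.384% also stood in another gene, and H2-L could not be checked. How many reads of these chains were left out as shared was not tested. In the MOF comparison 10 were tested, of which 1 was called higher (10% of all genes) and 2 lower (9.59% of all genes). H2-M2, a nonclassical chain, rose from 0.240 and 0.300 CPM to 2.92 and 4.18 CPM (log2 fold change 3.70 ± 0.58 SE, adjusted p = 0.003). Cd1d1, which presents lipids, fell from 13.9 CPM in both controls to 5.37 and 4.92 CPM, and Mr1, which presents vitamin B metabolites, fell from 5.03 and 4.61 CPM to 1.30 and 0.859 CPM. Adjusted p-values were 0.00229 and 0.00733. None of the 8 chains tested in the Kansl1 comparison was called by edgeR or DESeq2, with 2 at an unadjusted p under 0.05 (15.7% of all genes).

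Of 13 genes tested that make or trim class I peptides or help to load them, 1 was called higher and 0 lower in the MOF cKO by edgeR, and 2 and 0 by DESeq2, with 6 at an unadjusted p under 0.05. Over all genes tested, edgeR called 10% higher and 9.59% lower, and 48.9% were at an unadjusted p under 0.05. The called gene was Npepps, a cytosolic aminopeptidase, with 128 and 125 CPM in control and 230.4 and 219 CPM in MOF cKO (adjusted p = 0.00114). Among the loading helpers, Canx rose by 0.58 on the log2 scale in edgeR (adjusted p = 0.00592), under the 1.5-fold limit. Tapbpl had a log2 fold change of -1.20 (0.0201). Pdia3 (0.0323) and Calr (0.0624) were higher and not called. None of the 13 was called in the Kansl1 cKO by edgeR or DESeq2, with 1 at an unadjusted p under 0.05 (15.7% of all genes). Of 11 class II partners tested across the controls, 7 were called higher at P0.5 (19.6% of all genes), and 2 of the 9 tested were called higher in MOF cKO (10% of all genes). Ctss, the protease that cuts the invariant chain, went from 0.30 and 0.20 CPM to 7.92 and 8.82 CPM in MOF cKO (log2 fold change 5.03 ± 0.42 SE, adjusted p = 0.000441), and Ifi30, a lysosomal thiol reductase, from 31.8 and 37.7 CPM to 61.9 and 73.4 CPM (adjusted p = 0.0024). H2-Ea-ps had 7 counts in MOF cKO replicate 2 and 0 in the other 7 libraries.

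Of 23 presentation regulators tested at E16.5, 2 were called higher in the MOF cKO (Rela, an Nf-kB subunit, and Ifngr2, an interferon gamma receptor chain) and 1 lower (Rfxank), where 10% and 9.59% of all genes were. Between the controls 3 of 24 were called higher at P0.5 and 7 lower, where 19.6% and 20.6% of all genes were. Rfxank, a subunit of the factor that binds the X box, fell from 705 and 600 counts to 218 and 282 counts (log2 fold change -0.96, adjusted p = 0.00438). Rfx5 (25.7 and 25.6 against 28.8 and 26.4 CPM) and Rfxap (14.3 and 13.6 against 15.3 and 15.1 CPM) were not called. Nlrc5, the class I transactivator, had 0.779 and 0.902 CPM in control and 1.95 and 2.26 CPM in MOF cKO, with an adjusted p of 0.0961.

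Ciita, the class II transactivator, had few counts in all groups, with 0 and 13 counts in E16.5 control, 0 and 5 in MOF cKO, 2 and 9 in P0.5 control and 1 and 4 in Kansl1 cKO. In every group replicate 2 had the higher count. Irf1, an interferon-induced activator of class I promoters, had 73.3 and 138 CPM in E16.5 control and 79.6 and 81.4 CPM in MOF cKO, but 2.57 and 3.41 CPM in P0.5 control. Its fall between the controls was 5.11 ± 0.34 on the log2 scale (adjusted p = 5.77e-06), while Nlrc5 was higher at P0.5, at 5.02 and 3.83 CPM (log2 fold change 2.38 ± 0.48, adjusted p = 0.00232). In the Kansl1 comparison 0 of 23 regulators were called by edgeR or DESeq2, with 4 at an unadjusted p under 0.05 (15.7% of all genes).

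**Figure D4:**
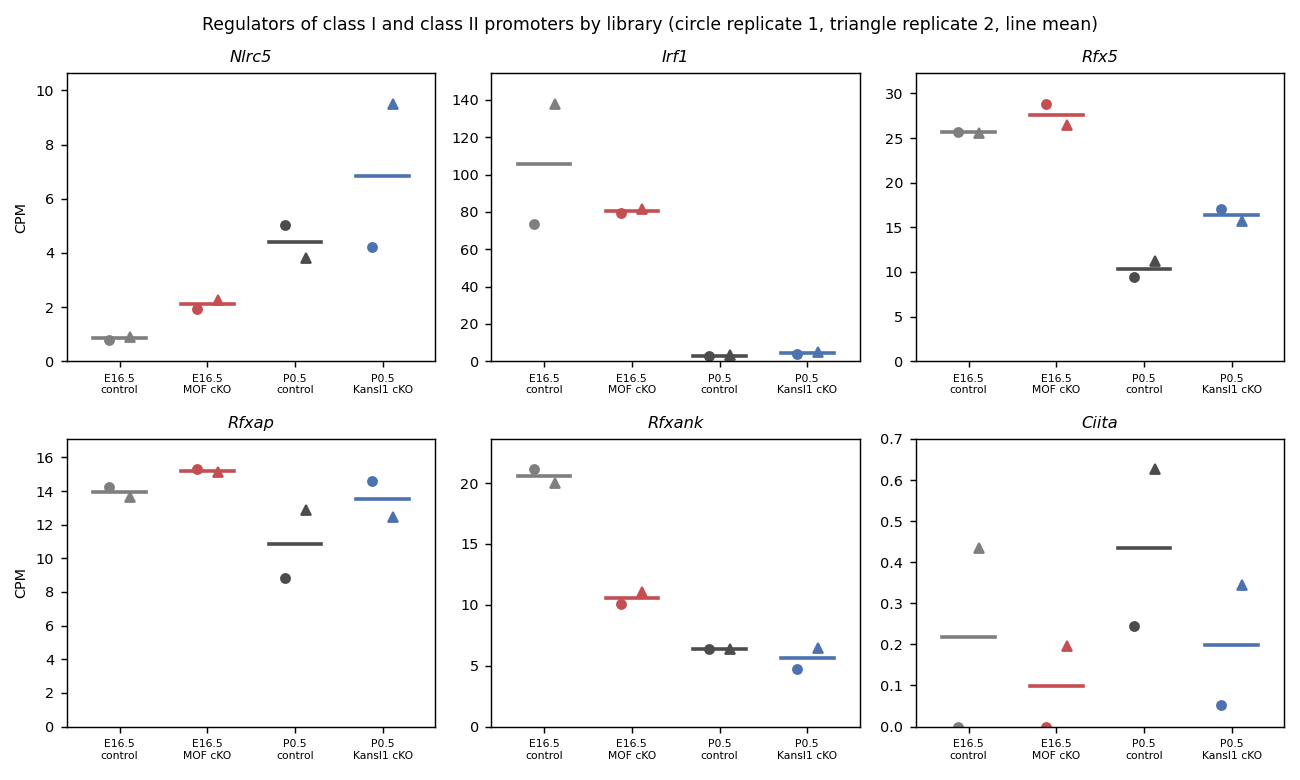
Level in counts-per-million of Nlrc5, Irf1, Rfx5, Rfxap, Rfxank and Ciita (vertical axis, linear from 0, scaled per gene) in the 4 groups, with circles for replicate 1, triangles for replicate 2 and a line at the mean. Irf1 is at 73.3 CPM or above in the 4 E16.5 libraries and below 5 CPM in the 4 P0.5 libraries.

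Interferon genes themselves were hardly counted. The 9 interferon ligands listed had at most 3 counts in any library (Ifng, Ifna2, Ifnl2 and Ifnk), and 5 had none in all 8. Of 21 other interferon response genes tested, 6 were called higher in MOF cKO and 0 lower by edgeR (10% and 9.59% of all genes), and 7 and 0 by DESeq2, which called 1816 of all 13956 genes higher. At an unadjusted p under 0.05 there were 13, where 48.9% of all genes were. Bst2, an antiviral membrane protein, rose from 1.11 and 0.768 CPM to 6.90 and 5.51 CPM (adjusted p = 0.00258), Isg15 from 0.419 and 0.401 CPM to 2.46 and 3.01 CPM (0.00938) and Cxcl10, a chemokine, from 2.46 and 2.57 CPM to 8.24 and 6.21 CPM (0.00941). Rsad2, an antiviral enzyme, had 2 and 0 counts in the E16.5 controls and 85 and 31 in MOF cKO, a ratio of 77.7 per effective library size with a 95% counting interval of 21 to 650. In the Kansl1 cKO 0 of 20 were called by edgeR or DESeq2, with 1 at an unadjusted p under 0.05 (15.7% of all genes).

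Markers of cells that carry class II molecules also differed between the E16.5 groups. In E16.5 MOF cKO 7 of 13 macrophage markers tested were called higher (10% of all genes) and 1 lower (Mertk, with 9.59% of all genes lower). Lyz2 went from 3 and 8 counts to 423 and 538, and C1qa from 2 and 5 to 171 and 181. All 7 pan-leukocyte markers were higher at an unadjusted p under 0.05, where 48.9% of all genes were at such a p in either direction. Of these, 4 were called higher (10% of all genes). Their summed level was 1.98 to 2.24 CPM in control and 26.3 to 28.6 CPM in MOF cKO. Over the same libraries the summed level of the 3 class II chains was 4.13 and 4.81 CPM in control and 2.96 and 5.43 CPM in MOF cKO, groups that overlap.

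Dendritic and Langerhans cell markers were nearly absent from E16.5. Their 11 genes summed to 0.0334 to 0.240 CPM in E16.5 control, with 8 of 11 at 0 in both libraries, and to 0.898 to 1.57 CPM in MOF cKO. Cd207, which defines Langerhans cells, had 3 and 0 counts in E16.5 control, 0 and 1 in MOF cKO and 0 in all 4 P0.5 libraries. B cell markers summed to 1.86 to 3.57 CPM in E16.5 control and 5.33 to 7.81 CPM in MOF cKO, almost all of it Cd79a, with Ms4a1 and Blk at 0. T and NK cell markers summed to 48.05 to 65.88 CPM in E16.5 control and 27.76 to 42.61 CPM in MOF cKO, most of it Thy1. Without Thy1 the sums were 9.35 to 11.6 CPM and 5.58 to 6.35 CPM, mostly Lck. In E16.5 control 7 of the 11 genes were at 0 in both libraries. The 2 tested, Thy1 and Lck, were both lower at an unadjusted p under 0.05 and not called. Of the other lists, 4 of 12 epithelial markers were called higher in MOF cKO and 1 lower (10% and 9.59% of all genes). Krt1, Krt10 and Grhl3, which mark or drive differentiation, were among those higher, and Krt15, a basal keratin, was lower. Of 7 endothelial markers 1 was called higher (Pecam1). By edgeR 0 of 8 fibroblast and 0 of 6 melanocyte markers were called, with 7 and 1 at an unadjusted p under 0.05 (48.9% of all genes). DESeq2 called 2 and 1 of them higher, and 1816 of all 13956 genes. The part of these cells in the H2-Eb1, B2m and Tapbp results was not tested.

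The leukocyte lists also differed between the controls. At P0.5 all 7 pan-leukocyte markers, 11 of 14 macrophage markers and 5 of 9 T and NK cell markers tested were called higher (19.6% of all genes), with 2 T and NK cell markers called lower (20.6% of all genes). The summed pan-leukocyte level was 108 to 116 CPM in P0.5 control, against 1.98 to 2.24 CPM in E16.5 control. Of 23 interferon response genes tested, 12 were called higher at P0.5 and 1 lower (Cxcl10). The part of these cells in the higher B2m, H2-K1, H2-Aa and H2-Eb1 levels was not tested, and the E16.5 sort for K14-H2BGFP+ cells had no counterpart at P0.5.

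At P0.5 the lists moved in different directions. The macrophage sum was higher in Kansl1 cKO than in control, as given above, while no macrophage marker was called by edgeR or DESeq2, with 5 of 13 at an unadjusted p under 0.05 (15.7% of all genes). The dendritic list went from 5.43 to 5.87 CPM in control to 3.02 to 3.36 CPM in Kansl1 cKO, mostly through Itgax, with 3.55 and 4.17 CPM against 1.65 and 1.73 CPM (log2 fold change -1.23, adjusted p = 0.228). The class II chains summed to 6.49 and 14.5 CPM in control and 3.62 and 3.45 CPM in Kansl1 cKO. Fibroblast markers summed to 1179 to 1881 CPM in control and 809.6 to 1020 CPM in Kansl1 cKO, with 0 of 8 called by edgeR, 4 called lower by DESeq2 and 6 at an unadjusted p under 0.05. Melanocyte markers summed to 468 to 524 CPM in control and 1038 to 1145 CPM in Kansl1 cKO, with 0 of 6 called by edgeR, 3 called higher by DESeq2 and 6 at an unadjusted p under 0.05. Of all 13031 genes tested, DESeq2 called 35 higher and 66 lower, and 15.7% were at an unadjusted p under 0.05 in edgeR. The part of any of these cells in the class II values was not tested.

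**Figure D5:**
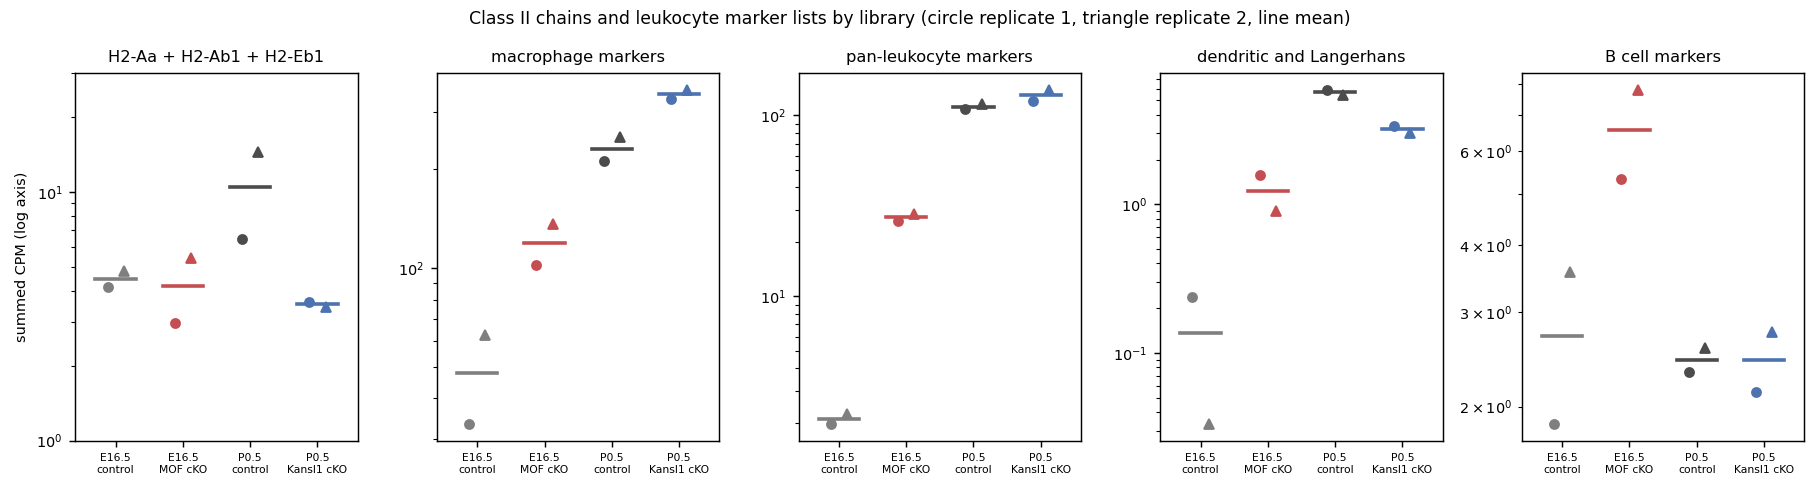
Summed level in counts-per-million (vertical axes logarithmic, own range in each panel) of the 3 class II chains and of the macrophage, pan-leukocyte, dendritic and Langerhans and B cell marker lists in the 4 groups, with circles for replicate 1, triangles for replicate 2 and a line at the mean. The pan-leukocyte sum is above 26 CPM in both E16.5 MOF cKO libraries and below 3 CPM in both controls, while the class II sums of these groups overlap.

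The genes whose log2 level over the 8 libraries was most like the mean of B2m, H2-K1 and H2-D1 were Slc39a2, Ivl, Pla2g2f, Ttc22 and Nfe2l3, each at a Pearson r of 0.998. The loading genes were most like Dnajc12 (0.962), 5730577I03Rik (0.958) and Msra (0.95), and the class II genes most like Med17 (0.942), Nosip (0.919) and 5730577I03Rik (0.915). The 8 points fall into 4 groups that share stage, isolation and sequencer, so these correlations are given as a description only.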

How the data were processed

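PolyA-selected RNA was sequenced as 150 nt pairs. The deposited values are raw read counts per gene symbol from HTSeq on mm10, made by the authors and not normalized. The aligner is TopHat2 in the submitters' processing notes and HISAT2 in the article, and the annotation is not given in the sources used here. Entries naming no gene held 21.1 to 26.0% of the counts per library and were left out. Each experiment was fitted alone with edgeR 4.0.16 in R 4.3.3 (filterByExpr, TMM, quasi-likelihood test, Benjamini-Hochberg over all genes tested), tested on simulated data first. The contrast of both effects and that of the controls came from a fit of all 8 libraries. Calls needed an adjusted p no higher than 0.01 with a fold change above 1.5. DESeq2 1.42.0, other scalings, filters and thresholds, and leaving out each library were tried. The 2 libraries of each group differed beyond counting error (chi-square per degree of freedom 23.5 to 44.1). CPM use effective library sizes over all 8 libraries. Exon lengths and positions are from GENCODE M21, promoter windows from RefSeq. Adgre1 and Marchf1 were read under their older symbols, and H2-Ea was not analysed here. The members and lists were chosen with earlier results of these data known. The genes named are all 10 members, 6 regulators whatever their values, both targeted genes, up to 4 per further list (the largest changes called in the MOF cKO at a mean of at least 1 CPM, otherwise the highest levels), and the 5 most alike per class. Others named here were chosen after their values were seen.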

Additional observations from a re-analysis of the deposited data

How the results depend on the processing

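The 3 members called higher in MOF cKO were also called under every scaling and filter, under DESeq2 and in the fit of all 8 libraries, H2-K1 was called too with every gene of at least 1 count, at an adjusted p of 0.05 and with the replicate block, and Tapbp was not called at fold change over 2. The count called lower in MOF cKO, 0, became 1 (H2-Ab1) with every gene of at least 1 count and with the replicate block. Leaving out single libraries gave 2 to 3 called higher and 0 to 1 called lower. The count in the Kansl1 cKO stayed at 0 in both directions in every alternative, also without each library. Members whose effects differed, 0 at first, were 3 (B2m, H2-Eb1 and Tapbp) with DESeq2, with every gene of at least 1 count and at an adjusted p of 0.05, 2 (H2-Eb1 and Tapbp) with a mean of at least 1 CPM and 1 (Tapbp) with relative log expression factors. Leaving out libraries gave 0. For the controls, leaving out libraries gave 3 to 4 higher and 0 lower. The cause of these moves was not tested, beyond the fewer libraries or other genes each alternative uses.

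Direction turned for Tap1 in MOF cKO (log2 fold change 0.04) with upper-quartile factors (-0.025) and with library size alone (-0.26), and over the libraries left out it ran from -0.18 to 0.23. In the Kansl1 cKO it turned for B2m in the fit of all 8 libraries (0.014), and leaving out libraries gave -0.24 to 0.20 for B2m, -0.21 to 0.036 for H2-K1 and -0.30 to 0.012 for Tap1. In the difference of effects it turned for Tap1 with library size alone (-0.058), and leaving out libraries gave -0.079 to 0.48 for Tap1, -0.22 to 0.051 for H2-D1 and -7.68 to 0.305 for H2-Ab1, whose lowest value rests on the library at 0. Between the controls it turned for Tapbp with library size alone (-0.28), and leaving out libraries gave -0.86 to 0.28 for H2-Ab1 and -0.42 to 0.82 for Cd74. None of these genes was called in these comparisons at first, and a group left with 1 library was assumed to vary like the others. Library size alone moved the median of all genes to -0.32 in MOF cKO and -0.46 between the controls, so members are read relative to that shift.

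Same-numbered libraries deviated together with r of 0.19 at E16.5 and -0.11 at P0.5, and nothing in the labels ties the numbers to litters. The replicate block called 4 members higher and 1 lower in MOF cKO, where H2-K1 had an adjusted p of 0.00269 and H2-Ab1 0.000671, and 0 in Kansl1 cKO. The crossed pairing, chosen after seeing the data, also called 0 members. No paired analysis was possible for the controls because the block is nested in the experiment. Over the alternatives the genes called among all tested ranged from 769 to 1943 higher and 954 to 2743 lower in MOF cKO (1395 and 1338 at first), 0 to 77 and 0 to 181 in Kansl1 cKO (0 and 0), 1 to 1112 and 0 to 985 for the difference (256 and 170), and 1985 to 3525 and 1604 to 4375 between the controls (2854 and 2997). The class II chains had few counts, and H2-Aa at E16.5 could not be tested. Each group had 2 libraries.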
